A study of Rattus norvegicus with 11 samples.

Results

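Leukocyte markers and genes of antigen presentation were followed in the rat renal cortex, as 40 genes in 6 groups: macrophage and myeloid markers, T cell markers, B cell markers, genes of cytotoxic lymphocytes, MHC class II genes and genes of the MHC class I pathway. Of the 40 genes, 38 had a probe on the array that was matched to them by RefSeq accession, and 37 were well above background on at least 2 arrays and were tested, among 25249 genes in all. Itgax and Ms4a1 had no matched probe here, and RT1-Ba was well above background on 1 array only. The tested genes comprised 16 of 17 myeloid, 6 of 6 T cell, 1 of 2 B cell, 4 of 4 cytotoxic, 4 of 5 class II and 6 of 6 class I genes. Of the 37, 34 were well above background on all 11 arrays.

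The animals were SD rats, either untreated (Control) or given STZ, a toxin of the insulin-producing beta cell, to induce type 1 diabetes (DM). After 4 weeks they had sham surgery or Roux-en-Y gastric bypass (RYGB), which joins a small stomach pouch to the jejunum, and renal cortex was taken 4 weeks later. Control+Sham, DM+Sham and Control+RYGB had 3 arrays each and DM+RYGB had 2, each hybridised with 1 dye. The labels give no age or sex and mention no pooling, and nothing says that replicates came from separate animals, so p-values measure only the spread between these samples, which may be technical. In whole cortex, fewer cells of a type and less RNA per cell cannot be told apart.

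Class I molecules show peptides from inside the cell to CD8 T cells. The immunoproteasome subunits Psmb8 and Psmb9 help to cut these peptides, Tap1 and Tap2 form the pump that moves them into the endoplasmic reticulum, and B2m is the light chain that pairs with a heavy chain such as RT1-S3 (RT1 is the rat MHC). Class II molecules (RT1-D and RT1-B) show peptides that phagocytes and B cells have taken up. Their invariant chain is Cd74, and Ciita is the coactivator that switches their genes on. Tubular epithelium carries class I molecules and can add class II under interferon gamma, so neither set marks leukocytes alone. The resident macrophages of the kidney express Cx3cr1, Adgre1 (F4/80), Csf1r and the complement genes C1qa, C1qb and C1qc.

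Promoter sequences of the class I genes were looked at because several of these genes moved together in the results below. The letters GAAA, then any 2 bases, then GAAA, which match the core of interferon response elements, were searched on both strands in windows of 300 bases (250 before and 50 after the start) from RefSeq, build GRCr8. They were present in 5 of 6 class I genes, against 3.92% of 33469 promoters, and in 7 of the 32 genes of the whole set that had a promoter entry (also Adgre1 and Gzma). The match lay at -121 to -112 in Tap1, -41 to -32 in Tap2, -4 to 6 in Psmb8, -112 to -103 in RT1-S3 and -150 to -141 in B2m, and Psmb9 had none in this window. The lines give the stretches around these matches in gene sense, with the matched letters in capitals; TTTC on the strand shown is GAAA on the other. Tap1, Tap2 and Psmb8 lie on the minus strand of chromosome 20 (chr20:4668625-4668724, chr20:4652298-4652397 and chr20:4657012-4657095), RT1-S3 on its plus strand (chr20:2675356-2675455) and B2m on the plus strand of chromosome 3 (chr3:129549120-129549219).
Tap1: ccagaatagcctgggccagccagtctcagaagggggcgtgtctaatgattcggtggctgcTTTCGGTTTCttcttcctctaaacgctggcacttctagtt
Tap2: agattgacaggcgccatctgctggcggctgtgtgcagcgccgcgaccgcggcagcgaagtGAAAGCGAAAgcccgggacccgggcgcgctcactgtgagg
Psmb8: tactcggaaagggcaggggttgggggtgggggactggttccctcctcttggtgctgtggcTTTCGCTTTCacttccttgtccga
RT1-S3: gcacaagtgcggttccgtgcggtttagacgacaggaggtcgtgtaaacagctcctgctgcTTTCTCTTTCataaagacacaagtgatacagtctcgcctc
B2m: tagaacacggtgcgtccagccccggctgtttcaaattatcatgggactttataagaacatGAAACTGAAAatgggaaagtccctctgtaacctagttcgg

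In class II promoters the pentamer CCAAT, the core of the Y box, was found in 4 of 4 entries, against 37.5% of all promoters. It was also found in 4 of 6 class I and 7 of 14 myeloid promoters, and in 1 of 4 T cell and 1 of 4 cytotoxic promoters. The reverse letters ATTGG stood at -49 to -45 in RT1-Da, -43 to -39 in RT1-Ba and -61 to -57 in RT1-Bb, the match nearest to the start in each. They are shown because these 3 genes encode class II chains and carry the motif at a similar place. RT1-Da and RT1-Ba lie on the plus strand (chr20:4515326-4515390 and chr20:4576974-4577038) and RT1-Bb on the minus strand (chr20:4604155-4604219). GAGGAA, the core letters of PU.1 sites, was present in 9 of 14 myeloid promoters against 27.6% of all, and TTCNNNGAA, the letters of gamma-activated sites, in 7 of 32 promoters of the set against 8.87%. Each match is a description of the letters in the window.
RT1-Da: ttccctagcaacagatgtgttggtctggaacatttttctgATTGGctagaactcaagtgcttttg
RT1-Ba: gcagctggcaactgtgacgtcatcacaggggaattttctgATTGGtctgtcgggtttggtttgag
RT1-Bb: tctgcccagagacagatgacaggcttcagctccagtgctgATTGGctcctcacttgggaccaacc

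Values below are log2 of the processed spot signal minus log2 of the array's 75th percentile, so 0 is the level of that percentile and 1 unit is a doubling. The difference between DM+Sham 2 and 3 was below the noise of repeated spots, as was that between Control+RYGB 2 and 3, and each pair was averaged and counted as 1 sample, which left 3, 2, 2 and 2 samples. Rose and fell are used of genes with limma's adjusted p below 0.05 and 1 direction under each of 3 scalings (75th percentile, median and quantiles). Changes are given on the 75th percentile scale. On that scale the median change of all genes was 0.03 for diabetes in sham rats, 0.57 for RYGB in diabetic rats, 0.29 for RYGB in control rats and 0.23 for the interaction, and with quantile scaling it was 0.04, -0.06, -0.04 and -0.03. Of the genes that passed with a single scaling, 79.3%, 57.9% and 38.6% were higher with RYGB in diabetic rats under the 75th percentile, median and quantile scalings, 79.7%, 66.4% and 40.2% with RYGB in control rats, and 60.7%, 43.3% and 43.3% for the interaction.

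Between 77.7% and 93.5% of probes were well above background on each array, and no spot was saturated. All 11 tested marker genes of renal cortex were above background on every array. The 2 DM+RYGB arrays differed from each other by a spread of 0.398 (log2), against 0.0199 to 0.189 for other pairs within a group. DM+RYGB 2 stood apart by heart muscle transcripts, whose list mean was 3.55 there and -6.60 to -4.42 on the other 10 arrays, and DM+RYGB 1 by low haemoglobin (Hba-a1 at 0.89, against 2.04 to 4.87 elsewhere). Changes called with this group are also given without DM+RYGB 2, by value or by count. Of the 5 scan days, none joined Control+Sham with Control+RYGB, and Control+RYGB arrays shared a slide position that no other group had, so for that group position and surgery cannot be told apart.

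**Figure D1:**
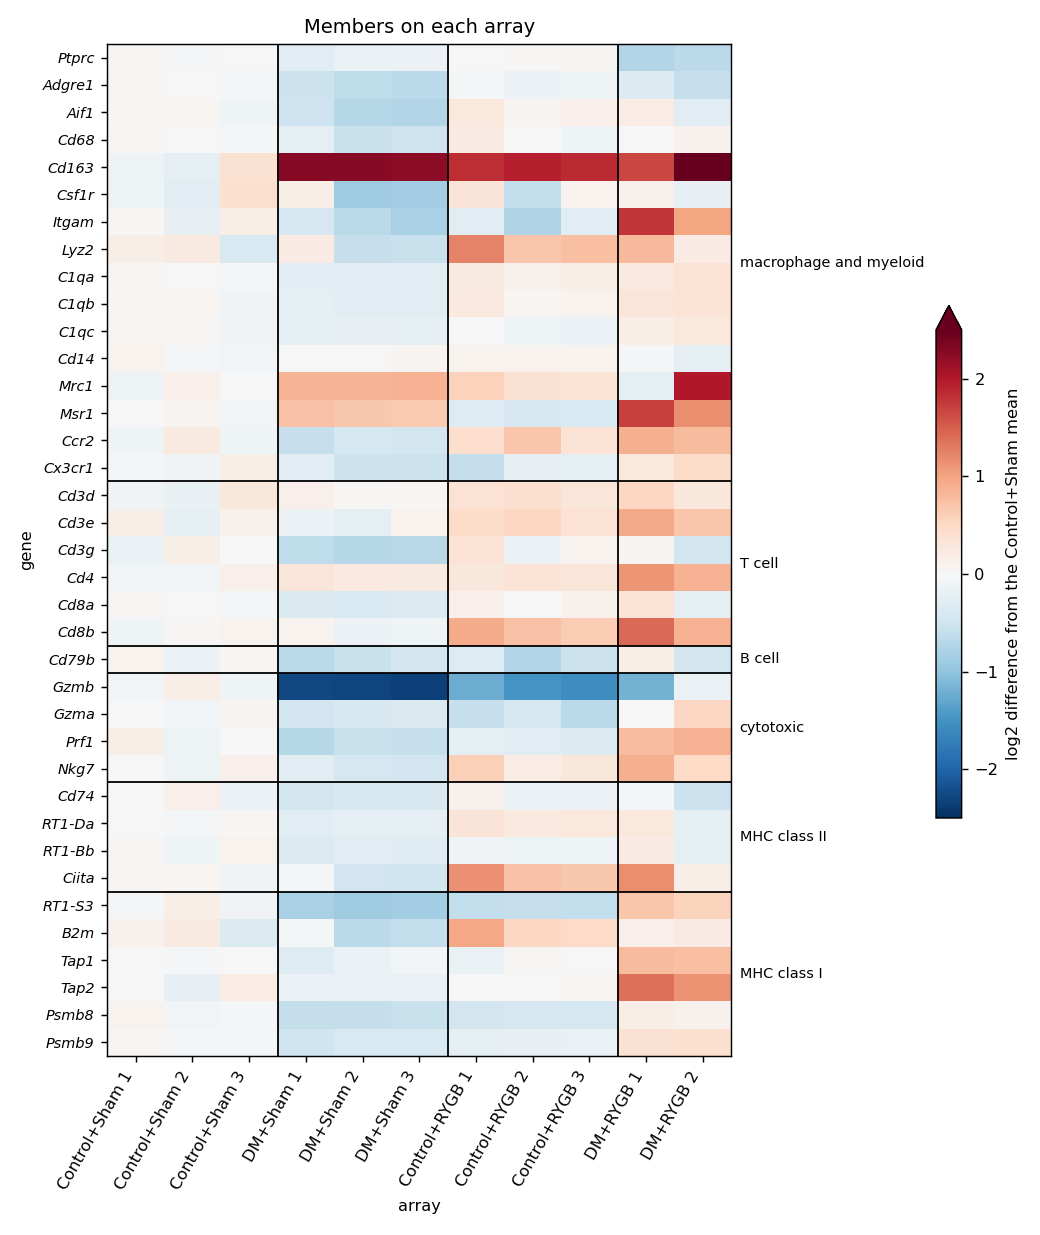
The 37 tested genes (rows, by group) on the 11 arrays (columns), coloured by the log2 difference from the mean of the Control+Sham arrays, with colours ending at 2.5 in either direction. Gzmb is the deepest blue in the 3 DM+Sham arrays, the class I genes RT1-S3, Tap1, Tap2 and Psmb9 are red in both DM+RYGB arrays, and Cd163 and Mrc1 are highest on DM+RYGB 2, where Cd163 lies beyond the colour range.

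In the diabetic kidney after sham surgery, 6 of the 37 genes fell and none rose. Gzmb and Prf1, which encode the protease and the pore-forming protein that killer lymphocytes release, fell by 2.29 and 0.64. In the class I pathway RT1-S3 fell by 0.84 and Psmb8 by 0.58, and among myeloid markers Adgre1 fell by 0.59 and Aif1 (IBA1), an actin-binding protein of macrophages, by 0.62. The 6 genes were 16.2% of the 37, against 6.46% of all genes that fell in this comparison (6.66% rose, 13.1% in either direction). No T cell, B cell or class II gene passed.

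Granzyme B had the widest difference. Gzmb stood at -3.04, -2.80 and -3.08 in Control+Sham and at -5.24, -5.26 and -5.31 in DM+Sham. The arrays did not overlap (SE of the change 0.29, adjusted p 0.00358), and a second Gzmb probe gave -2.15. Within the 2 scan days that held both groups the difference was -2.44 and -2.18. Granzyme genes form a family of close copies, and cross-hybridisation was not tested.

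Perforin followed with a smaller step. Prf1 measured -4.31, -4.59 and -4.46 in Control+Sham against -5.18, -5.01 and -5.02 in DM+Sham (SE 0.12, adjusted p 0.0155). The other 2 genes of killer lymphocytes did not pass: Gzma changed by -0.43 (adjusted p 0.123) and Nkg7, a granule membrane protein, by -0.36 (adjusted p 0.211). All 4 cytotoxic genes had a negative change under each of the 3 scalings, with a median of -0.54. Of 12 further tested genes of cytotoxic cells, none passed.

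For the class I pathway, RT1-S3 was at 0.88, 1.08 and 0.84 in Control+Sham and at 0.13, 0.05 and 0.06 in DM+Sham (SE 0.11, adjusted p 0.00500). Psmb8 was at -1.58, -1.73 and -1.70 in Control+Sham and at -2.26, -2.26 and -2.22 in DM+Sham (SE 0.10, adjusted p 0.0102). Neither gene's arrays overlapped between the groups, and the differences were -0.95 and -0.79 for RT1-S3 and -0.53 and -0.56 for Psmb8 within the 2 shared scan days. Psmb9 changed by -0.44 and passed with 2 of the 3 scalings (adjusted p 0.0505 with quantile scaling). B2m (-0.34), Tap1 (-0.22) and Tap2 (-0.16) did not pass.

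Among myeloid genes, Adgre1 read -0.86, -0.90 and -0.95 in Control+Sham and -1.44, -1.55 and -1.56 in DM+Sham (SE 0.11, adjusted p 0.0160). Aif1 read 1.76, 1.74 and 1.60 against 1.18, 0.98 and 0.97 (SE 0.16, adjusted p 0.0435), and its second probe gave -0.70. Both genes separated the groups on every array. The scavenger receptors went the other way without passing: Msr1 changed by 0.70 (adjusted p 0.0572 with quantile scaling), Mrc1 by 0.85 (adjusted p 0.350) and Cd163 by 2.27 (adjusted p 0.136). Of 35 other tested myeloid genes 3 fell, including the costimulator Cd86 by 0.83, and 2 rose, including the lipid receptor Trem2 by 1.03.

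Of these calls, Gzmb and RT1-S3 held when any single array was left out. Without DM+Sham 2 and 3 together, when DM+Sham 1 stood alone and was assumed to vary like the other groups, 0 of the 37 passed, and without Control+Sham 1, Control+Sham 2 or DM+Sham 1 the count was 2, 3 and 2. Aif1 and Prf1 also lost the call without Control+Sham 3, Control+RYGB 1 or Control+RYGB 2 and 3. Without DM+RYGB 1 or without DM+RYGB 2, which enter only through the shared spread, 12 passed, and Cd163 (2.27), Mrc1 (0.85) and Msr1 (0.70) were then called higher in DM+Sham. With normexp background correction 0 passed in all 3 scalings, with Gzmb at -1.70 and RT1-S3 at -0.83. Genes of the urothelium, which lines the renal pelvis, fell in 6 of 7 cases (list mean -2.75 to -2.55 in Control+Sham and -6.69 to -6.58 in DM+Sham, 5 of 7 above background on all arrays), and their part in the leukocyte result was not tested.

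**Figure D2:**
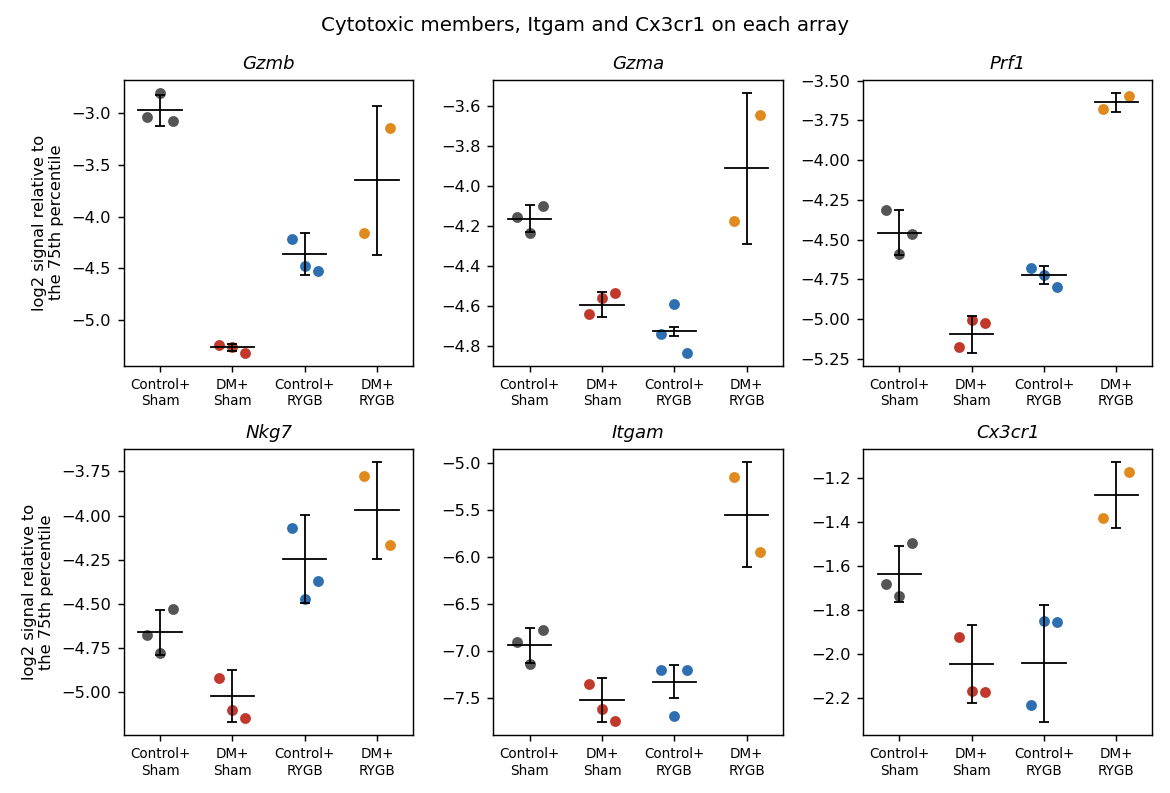
Log2 signal relative to the array's 75th percentile for the 4 cytotoxic genes and for Itgam and Cx3cr1 in the 4 groups; points are arrays, and bars are the mean and SD over samples (n = 3, 2, 2 and 2). Gzmb is lowest in DM+Sham, between -5.31 and -5.24, and Prf1 and Itgam are highest in DM+RYGB.

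DM+RYGB was set against DM+Sham, arrays that also enter the comparison above, so opposite signs in both are not independent. In the diabetic kidney after bypass 4 of 6 class I genes rose: RT1-S3 rose by 1.47, Tap2 by 1.41, Psmb9 by 0.84 and Psmb8 by 0.72. Prf1 rose by 1.46 and Itgam (CD11b), an integrin of monocytes, macrophages and neutrophils, by 1.97. Ptprc (CD45), the common leukocyte antigen, fell by 0.47 with one probe. The 6 genes that rose were 16.2% of the 37, close to the 13.1% of all genes that rose, and the 1 that fell stood against 10.9% (24% in either direction), so the count itself does not set this gene set apart. No T cell, B cell or class II gene passed.

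Both DM+RYGB arrays lay above all other arrays for 5 of the 6 class I genes, the exception being B2m. For Psmb8 the margin was narrow (-1.56 on DM+RYGB 2 against -1.58 on Control+Sham 1). On this scale DM+RYGB had the highest group mean for 56.4% of all genes, and with quantile scaling for 29.8%. The share of all genes with both DM+RYGB arrays on top was not computed, so the count of 5 of 6 does not set the class I genes apart. RT1-S3 was at 1.63 and 1.49 in DM+RYGB (SE 0.13, adjusted p 0.000601), above all 9 other arrays, which ran from 0.05 to 1.08. Tap2 was at -0.07 and -0.32 against -1.60, -1.61 and -1.61 in DM+Sham (SE 0.16, adjusted p 0.00118), also above all other arrays. Relative to the median of all genes these changes were 0.90 and 0.84. Within the 1 scan day that held both groups they were 1.57 and 1.54 before that subtraction, where the median of all genes was 0.67.

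The immunoproteasome genes moved less. Psmb9 was at 1.03 and 1.04 in DM+RYGB and at 0.13, 0.27 and 0.25 in DM+Sham (SE 0.10, adjusted p 0.00158). Psmb8 was at -1.50 and -1.56 in DM+RYGB, above the DM+Sham values given before (SE 0.10, adjusted p 0.00260). Relative to the median of all genes the changes were 0.27 and 0.15, and with median scaling they were 0.52 and 0.40. Tap1 was at -3.06 and -3.10 in DM+RYGB and at -4.18, -4.02 and -3.92 in DM+Sham, a change of 1.00 that did not pass with quantile scaling (0.37, adjusted p 0.102). B2m changed by 0.51 (adjusted p 0.160), and its DM+RYGB arrays (3.50 and 3.58) lay within the Control+Sham range and below Control+RYGB.

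Genes close to this pathway were mixed. Of 18 further tested class I genes 2 heavy chains rose, RT1-CE16 by 1.23 (adjusted p 0.00176) and RT1-CE7 by 1.07 (adjusted p 0.00498), and the chaperone Calr fell by 1.03, with a list median of 0.48 against 0.57 for all genes. Without DM+RYGB 2 these 3 changes were 1.35, 1.17 and -1.10 and each passed. The 18 genes held 1 higher and 1 lower interaction. RT1 heavy chains are near-identical copies of each other, so which of them a probe reads is uncertain. Among 12 genes of interferon gamma signalling, Ifngr1, a receptor chain, rose by 1.04 (1.16 without DM+RYGB 2), and 10 did not pass.

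**Figure D3:**
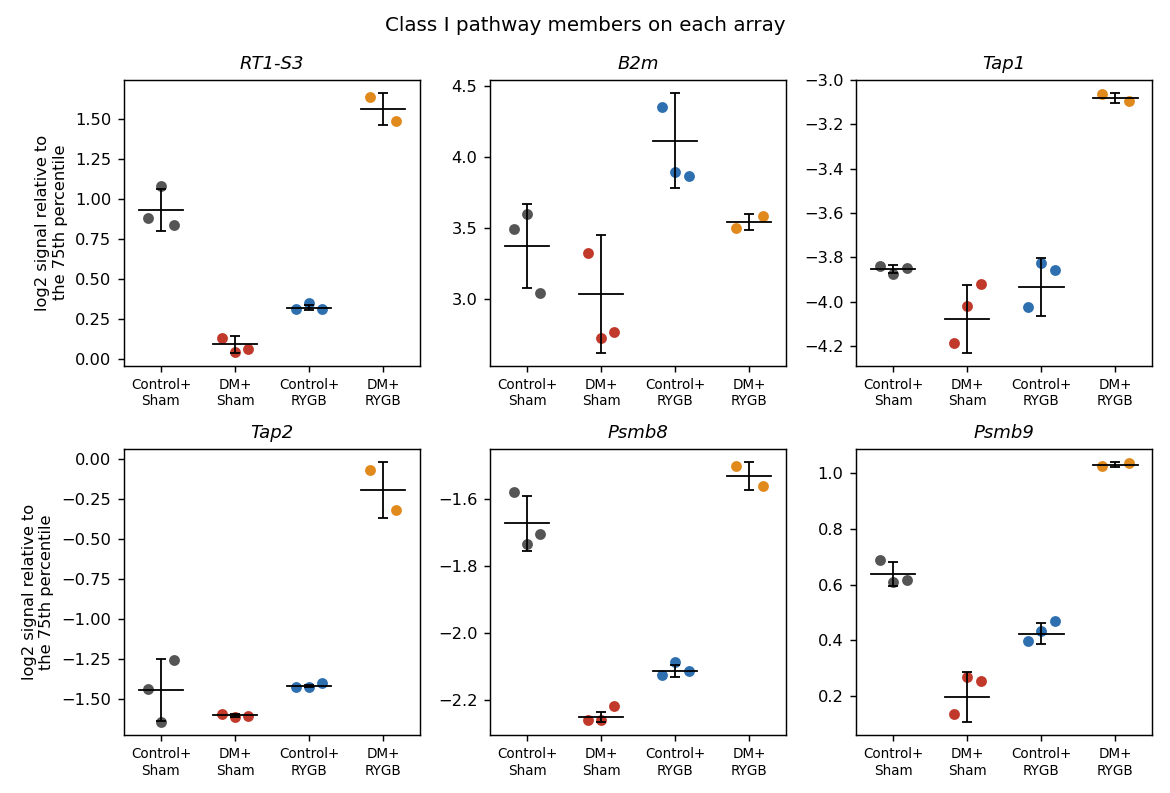
Log2 signal relative to the array's 75th percentile for the 6 class I genes in the 4 groups; points are arrays, and bars are the mean and SD over samples (n = 3, 2, 2 and 2). The 2 DM+RYGB arrays are highest for RT1-S3, Tap1, Tap2, Psmb8 and Psmb9, and B2m is highest in Control+RYGB, where it did not pass the test.

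Perforin was at -3.68 and -3.59 in DM+RYGB, above all other arrays (SE 0.13, adjusted p 0.000675), and its change was 0.67 with quantile scaling. Gzmb was at -4.16 and -3.14, apart from DM+Sham on both arrays, and its change of 1.61 did not pass with quantile scaling (adjusted p 0.124). Gzma was at -4.18 and -3.64 and changed by 0.68, and Nkg7 changed by 1.05, with adjusted p of 0.720 and 0.345 under quantile scaling. Of the 12 further cytotoxic genes 3 rose: the activating receptor Klrk1 (NKG2D) by 1.55, the chemokine Xcl1 by 1.36 and the transcription factor Tbx21 (T-bet) by 1.12. Without DM+RYGB 2 Prf1 changed by 1.42 and Tbx21 by 1.19, and neither passed in all 3 scalings, while Klrk1 (1.72) and Xcl1 (1.47) passed.

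Myeloid genes did not move as a block. Itgam was at -5.15 and -5.95 in DM+RYGB and at -7.36, -7.62 and -7.75 in DM+Sham (SE 0.28, adjusted p 0.00241), with a change of 0.73 under quantile scaling (adjusted p 0.0472), and its call was lost under 15 of 27 alternative settings. Ptprc was at -0.78 and -0.69 in DM+RYGB against -0.33, -0.20 and -0.19 in DM+Sham (SE 0.10, adjusted p 0.0106), while its second probe gave -0.08. The complement genes C1qa and C1qb changed by 0.56 each, which is the median of all genes, and did not pass with median scaling. Among the chemokine receptors, Ccr2 changed by 1.35 and Cx3cr1 by 0.77, neither passing with quantile scaling (adjusted p 0.119 and 0.0858).

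Cd163 and Mrc1, receptors of tissue macrophages, split the DM+RYGB arrays. Cd163 read -5.23 and -1.70 and Mrc1 -5.92 and -3.69, with the higher value on DM+RYGB 2, the array with heart muscle transcripts. For Mrc1 the change was 0.04 with both arrays and -1.07 without DM+RYGB 2. Of 35 further myeloid genes 1 rose, the phagocytic receptor Mertk by 1.55, and 3 fell, among them Cd53 by 0.54 and Itgb2 by 0.52. Without DM+RYGB 2 these changes were 1.93, -0.64 and -0.35, and each passed.

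Without DM+RYGB 2, 10 genes of the set passed, 6 of them among the 7 above, with RT1-S3 at 1.54, Tap2 at 1.53, Psmb9 at 0.83 and Psmb8 at 0.75. RT1-S3 and Tap2 kept the call under 26 of 27 alternative settings and lost it with normexp (1.37 and 1.39 there), where Prf1 alone of the 37 passed (1.93). Without DM+Sham 1, 3 passed (not Prf1, Psmb8, Psmb9 or Itgam), and without DM+Sham 2 and 3, 4 passed (not Ptprc, Psmb8 or Itgam). Psmb8 also lost the call without Control+RYGB 1 or Control+RYGB 2 and 3. With scan day as a block 4 passed, among them RT1-S3 (1.52), Tap2 (1.46) and Ptprc, and with only these 2 groups in the fit 2 passed, RT1-S3 and Tap2. Mast cell genes rose in 4 of 8 tested cases in the same comparison, where 13.1% of all genes rose. Their list mean was -7.71 to -7.25 in DM+Sham and -5.56 to -5.52 in DM+RYGB, with 3 of 8 above background on all arrays. The chymase Cma1 led at 3.23 (3.33 without DM+RYGB 2), and Fcer1a rose by 2.59 (2.93 without it), both still passing. Tpsab1 (1.91, and 1.77 without DM+RYGB 2) and Ms4a2 (2.48 and 2.56) then did not pass in all 3 scalings. Podocyte genes such as Nphs1 rose by 2.03 (2.31 without DM+RYGB 2). The part of the mast cell and podocyte genes in the class I result was not tested.

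RYGB in control rats asked what the operation did without diabetes. Here 4 of the 37 genes fell and none rose: Gzmb by 1.39, Gzma by 0.56, RT1-S3 by 0.61 and Psmb8 by 0.44. They were 10.8% of the 37, against 5.49% of all genes that fell (7.77% rose, 13.3% in either direction). The comparison shares the Control+Sham arrays with that of diabetes in sham rats. No myeloid, T cell, B cell or class II gene passed.

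Gzmb was at -4.22, -4.48 and -4.53 in Control+RYGB, below every Control+Sham array (SE 0.29, adjusted p 0.0188), and its second probe gave -1.61. Gzma was at -4.74, -4.59 and -4.83 against -4.15, -4.24 and -4.10 in Control+Sham (SE 0.16, adjusted p 0.0446). RT1-S3 was at 0.31, 0.35 and 0.31 (SE 0.11, adjusted p 0.0146) and Psmb8 at -2.13, -2.09 and -2.11 (SE 0.10, adjusted p 0.0215), and neither overlapped Control+Sham. Relative to the median of all genes the 4 changes were -1.68, -0.85, -0.90 and -0.73.

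Several genes sat higher in Control+RYGB without passing. Lyz2 (lysozyme) changed by 0.98 (adjusted p 0.0655), B2m by 0.74 (adjusted p 0.0691), Ciita by 0.92 (adjusted p 0.0654) and Cd8b by 0.81 (adjusted p 0.193 with quantile scaling). Of the 12 interferon gamma genes, the chemokine Cxcl10 rose by 2.82 and the transcription factor Irf1 by 1.21, while the GTPase Gbp2 fell by 1.04 and Ifngr1 by 0.37.

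The 4 calls did not hold when Control+Sham 1, Control+RYGB 1 or Control+RYGB 2 and 3 were left out (0 of 37 passed each time). Without Control+Sham 2, RT1-S3 alone passed. Gzma also lost the call without Control+Sham 3, DM+Sham 1, Control+RYGB 3 or DM+Sham 2 and 3, and without DM+RYGB 1 or DM+RYGB 2, 9 passed. With scan day as a block 0 of the 37 passed, as with normexp. Urothelial genes fell here as well in 6 of 7 cases (list mean -6.04 to -5.37 in Control+RYGB), and their part was not tested.

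The interaction asks whether RYGB acted differently in diabetic and control rats, and tests that difference itself. For 9 of the 37 genes, 24.3% against 7.57% of all genes, the change with RYGB was higher in diabetic rats, and for none was it lower, against 8.08% of all genes (15.7% in either direction). The 9 were 5 of 6 class I genes, 2 of 4 cytotoxic genes and 2 of 16 myeloid genes. The differences were 2.08 for RT1-S3 (SE 0.17, adjusted p 0.000911), 1.38 for Tap2 (SE 0.21, adjusted p 0.00634), 1.16 for Psmb8 (SE 0.14, adjusted p 0.00312), 1.08 for Tap1 (SE 0.16, adjusted p 0.00640) and 1.05 for Psmb9 (SE 0.14, adjusted p 0.00408). B2m, at -0.23, was the class I gene that did not pass.

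Gzmb differed by 3.002 (SE 0.42, adjusted p 0.00497) and Prf1 by 1.73 (SE 0.18, adjusted p 0.00186). The second Gzmb probe gave 3.11. Gzma, at 1.25, did not pass with quantile scaling (adjusted p 0.0890), and Nkg7 was at 0.64 (adjusted p 0.129). Of the 12 further cytotoxic genes none passed in the interaction. Itgam differed by 2.37 (SE 0.38, adjusted p 0.00747) and Cx3cr1, the fractalkine receptor, by 1.18 (SE 0.24, adjusted p 0.0170). Of the 35 further myeloid genes 1 had a higher interaction and 2 a lower one. Cx3cr1 was at -1.68, -1.74 and -1.50 in Control+Sham, -1.92, -2.17 and -2.18 in DM+Sham, -2.23, -1.85 and -1.86 in Control+RYGB and -1.38 and -1.17 in DM+RYGB, so its highest arrays were those of DM+RYGB.

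**Figure D4:**
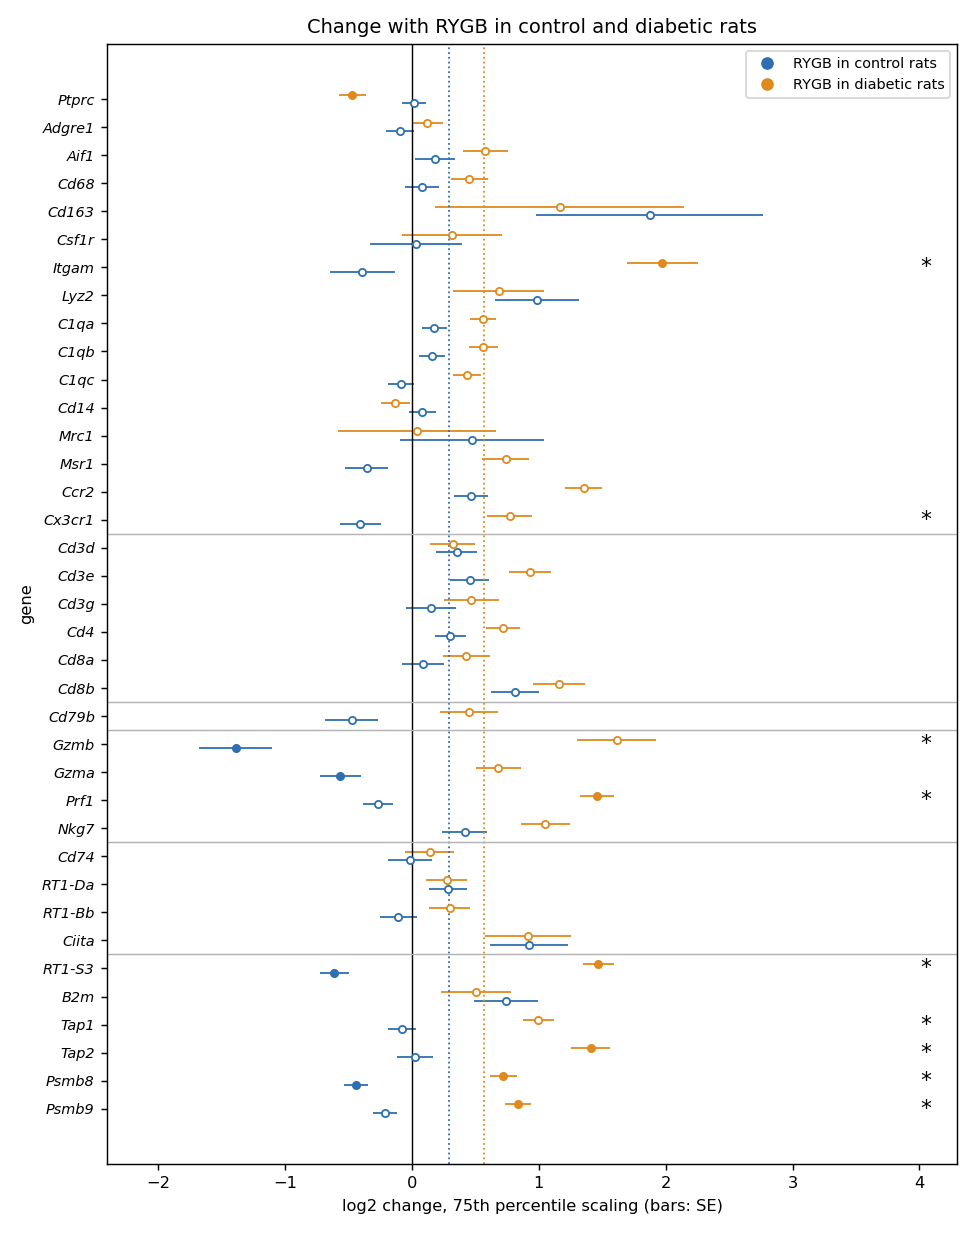
Log2 change with RYGB in control rats (blue) and in diabetic rats (orange) for the 37 tested genes on the 75th percentile scale, with SE as bars; filled points rose or fell under all 3 scalings, open points did not, stars mark genes whose interaction passed, and dotted lines are the medians of all genes (0.29 and 0.57). RT1-S3 and Gzmb lie on opposite sides of 0 in the 2 comparisons, and RT1-Da lies at 0.27 and 0.28.

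Of the 9 genes, 7 also passed without DM+RYGB 2, with Gzmb at 2.49, RT1-S3 at 2.15 and Prf1 at 1.68, and Cx3cr1 (1.07) and Tap1 (1.09) did not pass in all 3 scalings. Without Control+RYGB 1, 6 passed (not Cx3cr1, Tap1 or Psmb9), and without Control+RYGB 2 and 3, 6 passed (not Gzmb, Tap1 or Psmb9). Cx3cr1 and Tap1 were also lost without any single Control+Sham array or without DM+Sham 1, and Cx3cr1 without DM+Sham 2 and 3. With scan day as a block 8 passed, all but Tap1, and with normexp 1 passed, Gzmb at 3.32. Urothelial genes had a positive called interaction in 6 of 7 cases, from 3.45 to 8.87. Without DM+RYGB 2 these interactions ran from 3.63 to 9.37. The part of the urothelial genes in the result for the 9 genes was not tested.

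T cell genes passed in no comparison. Cd3g, a chain of the T cell receptor complex, was at -1.23, -0.92 and -1.06 in Control+Sham, -1.71, -1.79 and -1.77 in DM+Sham, -0.74, -1.21 and -0.99 in Control+RYGB and -1.01 and -1.54 in DM+RYGB. DM+Sham lay below the other groups on all arrays (adjusted p 0.0624). The coreceptor chain Cd8b was -5.62 to -5.43 in Control+Sham, -5.65 to -5.41 in DM+Sham, -4.87 to -4.57 in Control+RYGB and -4.63 and -4.08 in DM+RYGB. It was higher after RYGB on every array with either disease state, and its change in diabetic rats was 1.16 with the 75th percentile and 0.25 with quantile scaling (adjusted p 0.343). All 6 T cell genes had a positive change in diabetic rats with the first scaling and 2 of 6 with quantile scaling, so no direction is given for the group.

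Of 18 further tested T cell genes, 3 rose and 2 fell with RYGB in diabetic rats, among them the costimulator Cd27 by 1.65 and the cytokine receptor Il7r by 1.40 (1.93 and 1.54 without DM+RYGB 2, both passing). Cd79b, a chain of the B cell receptor, was the only B cell marker tested. It was at -6.48, -6.72 and -6.51 in Control+Sham, -7.24, -7.13 and -7.04 in DM+Sham, -6.88, -7.31 and -7.10 in Control+RYGB and -6.40 and -7.03 in DM+RYGB. The RYGB groups overlapped and no comparison passed.

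The class II genes with the brighter probes varied little. RT1-Da, the alpha chain of RT1-D, was at 2.08, 2.02 and 2.12 in Control+Sham, 1.81, 1.83 and 1.82 in DM+Sham, 2.39, 2.32 and 2.34 in Control+RYGB and 2.33 and 1.86 in DM+RYGB. DM+Sham was lowest, and its change was -0.25 (adjusted p 0.289). Cd74 changed by -0.43 with diabetes (adjusted p 0.145), 0.14 with RYGB in diabetic rats and -0.02 with RYGB in control rats. Ciita did not pass with RYGB in diabetic rats (0.92 with the 75th percentile and 0.18 with quantile scaling, adjusted p 0.0572 and 0.715) or in control rats (0.92 and 0.61, adjusted p 0.0654 and 0.207), and its interaction was -0.01 and -0.43 under these scalings (adjusted p 0.994 and 0.560).

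The 2 probes of RT1-Bb, the beta chain of RT1-B, disagreed. The brighter probe ran from -0.14 to 0.40 over all 11 arrays and passed in no comparison. The dimmer probe was not well above background on any Control+Sham or DM+Sham array, stood at -8.09, -8.09 and -8.37 in Control+RYGB, and at -1.37 and -1.73 in DM+RYGB. For that probe DM+RYGB was at least 83.2-fold above Control+Sham and at least 133-fold above DM+Sham, with each dim array set to the higher of this probe's signal and that of the dimmest probe that was well above background there (-9.11 to -7.18 in Control+Sham, -9.13 to -8.17 in DM+Sham). Of the DM+RYGB arrays, DM+RYGB 2 read lower. Why 2 probes of 1 accession differ was not tested.

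**Figure D5:**
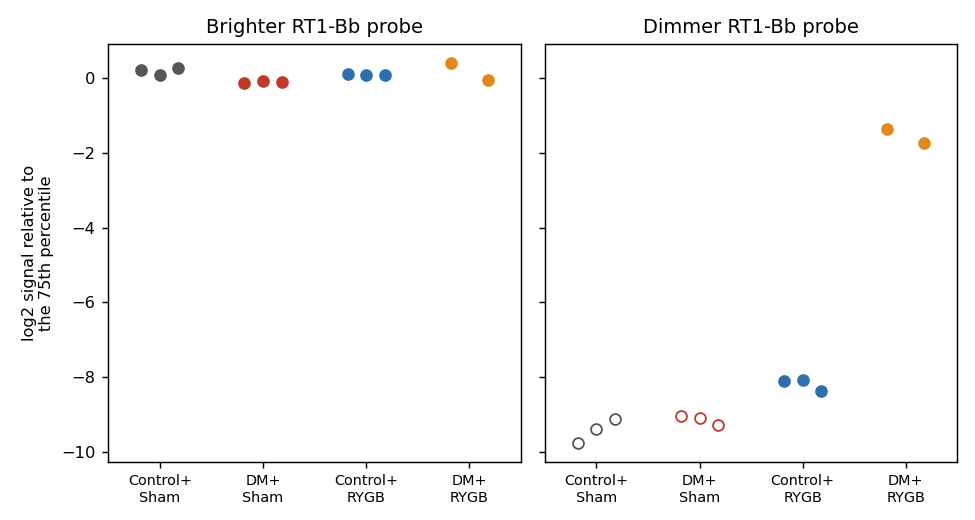
Log2 signal relative to the array's 75th percentile for the 2 RT1-Bb probes in the 4 groups; each point is an array, and open points were not well above background. The brighter probe stays near 0 on all arrays, and the dimmer one lies at -1.37 and -1.73 in DM+RYGB and below -8 elsewhere.

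Other class II genes changed in opposite directions with RYGB in diabetic rats. Of 12 tested, the class II chain RT1-Db1 rose by 1.60 (adjusted p 0.00250) and the peptide loader RT1-DMb by 0.94 (adjusted p 0.00822). Rfx5, a subunit of the factor that binds the X box of class II promoters, fell by 2.69 (adjusted p 0.000778), and the lysosomal protease Lgmn fell by 1.58 (adjusted p 0.00254). Without DM+RYGB 2 the 4 changes were 1.85, 1.06, -2.42 and -1.39, and each passed. Rfx5 was at -2.56 and -3.11 in DM+RYGB and between -0.86 and 0.20 on the other 9 arrays.

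The brightest class I and myeloid genes overlapped between the sham groups. B2m was at 3.49, 3.60 and 3.04 in Control+Sham, 3.33, 2.73 and 2.77 in DM+Sham, 4.35, 3.89 and 3.86 in Control+RYGB and 3.50 and 3.58 in DM+RYGB. Lyz2 was at 3.63, 3.71 and 3.11, then 3.69, 2.92 and 2.93, then 4.72, 4.18 and 4.24, and 4.29 and 3.69 in the same order of groups. Control+RYGB had the highest mean for both; its B2m arrays lay above all others, and its Lyz2 arrays overlapped DM+RYGB 1.

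Across the 37 genes, DM+Sham had the lowest group mean for 29 with the 75th percentile, 23 with the median and 19 with quantile scaling, against 34.7%, 31.0% and 21.6% of all genes. DM+RYGB had the highest mean for 21, 14 and 10 genes, against 56.4%, 39.5% and 29.8% of all genes. The median change of the 37 was -0.34 with diabetes in sham rats, against 0.03 for all genes, and was negative under each scaling. With RYGB in diabetic rats it was 0.68 against 0.57, and with RYGB in control rats 0.08 against 0.29 (-0.05 with median and -0.12 with quantile scaling). Among the 141 other tested genes of leukocytes and antigen presentation, 18 fell with diabetes in sham rats (12.8%, against 6.46% of all genes) and 6 rose (4.26%, against 6.66%). With RYGB in diabetic rats 18 rose (12.8%, against 13.1%) and 10 fell (7.09%, against 10.9%), and with RYGB in control rats 9 rose (6.38%, against 7.77%) and 8 fell (5.67%, against 5.49%). For the interaction 12 were higher (8.51%, against 7.57%) and 10 lower (7.09%, against 8.08%), both near the share of all genes.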

How the data were processed

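Cy3-labelled cRNA from renal cortex was hybridised to Agilent rat arrays. The spot intensity was deposited by the authors as Feature Extraction output, background-subtracted per the file headers, with no scaling between arrays. The deposited series table holds log2 values (column medians 7.07, correlation 0.9887 to 0.9969 with the scanner values); its software is not given here, and it served as an alternative.

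Control spots and outlier spots were left out (an outlier stayed where all spots of its probe were outliers), and spots of 1 probe were averaged, giving 30367 probes, 18005 of them with 1 gene symbol through RefSeq accessions. The 28488 probes with signal well above background on 2 or more arrays were used, and the brightest stood for a gene. Group means of 4 groups were fitted in limma 3.58.1 (R 4.3.3, lmFit and eBayes, 5 residual degrees of freedom), with Benjamini-Hochberg adjustment over 25249 genes. All adjusted p-values are from limma. The fit was tested on simulated data.

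Averaging rested on the spread of same-position spots of repeated probes: 0.0199 for DM+Sham 2 and 3 (spot noise 0.0749 and 0.0701) and 0.0494 for Control+RYGB 2 and 3 (0.0910 and 0.0802). This measure replaced a first one over single-spot probes after its result was seen. By the first one DM+Sham 2 and 3 (0.0314) would still have been averaged, and Control+RYGB 2 and 3 (0.0978) would not. Averaging only DM+Sham 2 and 3 was therefore added as an alternative after the data were seen.

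The members, gene lists, motifs and tests were chosen with earlier results of these data known. All members could be named, with array values for those called in any comparison and for the member with the highest mean in each group, plus up to 4 genes with the smallest p from each other list; the RT1-Bb probe, Cd163, Mrc1 and Cd8b values and the printed promoter stretches were chosen after they were seen. The alternatives were scaling, background, filter and probe choices, robust eBayes, separate arrays, blocks and left-out samples. Normexp (offset 50) used the median spot signal and did not leave out outlier spots. The number of arrays limits the precision. Some list genes are not reported here.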

Additional observations from a re-analysis of the deposited data

Results flagged for a closer look

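Each value here is the change with RYGB in diabetic rats minus that in control rats (log2), for genes whose response differed between diabetic and control rats in limma's interaction test. In the class I pathway it was 2.08 for RT1-S3, 1.38 for Tap2, 1.16 for Psmb8, 1.08 for Tap1 and 1.05 for Psmb9. Among cytotoxic genes it was 3.002 for Gzmb and 1.73 for Prf1, and among myeloid genes 2.37 for Itgam and 1.18 for Cx3cr1. Of these 9 genes, 8 had a negative change in control rats and a positive one in diabetic rats under all 3 scalings, and Tap2, at 0.02 in control rats with the 75th percentile, did so under 2. The genes were picked for a positive interaction in these same arrays, which favours such signs, so the signs are not a separate result. The share with these signs among all genes with a higher interaction was not computed.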

How the results depend on the processing

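Over 27 alternative settings 3959 values were recomputed: 3700 stayed on their side of the threshold, 138 of them with another sign where neither value passed, 134 passed newly, 122 no longer passed and 3 reversed. Cd79b with RYGB in diabetic rats was -0.93 with quantile scaling alone and -0.75 in the deposited table, and Mrc1 in that comparison was -1.07 without DM+RYGB 2 and 1.15 without DM+RYGB 1. Counts below give, of the 37 genes and then of all genes, those that passed, against 6, 7, 4 and 9 of the 37 and 3312, 6067, 3348 and 3952 of all in the reported analysis (in the order diabetes, RYGB under diabetes, RYGB without diabetes, interaction); the cause of each shift was not tested. For RYGB in diabetic rats they were 15 and 11695 with median scaling alone, 12 and 9476 with quantiles alone, 22 and 13342 with the 75th percentile alone, 12 and 9756 in the deposited table, and 2 and 1580 with only the groups compared. For RYGB in control rats all genes gave 5842 with the median alone, 6843 with the 75th percentile alone and 5032 with only the groups compared; quantiles alone gave 8 of the 37, and the deposited table gave 8 and 5339. Normexp gave 0, 1, 0 and 1 of the 37 and 146, 2602, 87 and 661 of all genes. With 11 separate arrays diabetes in sham rats gave 11 and 7068, RYGB in control rats 8 and 6597, and the interaction 6792 of all. A block for the replicate number gave 11, 8, 6 and 11 of the 37 and 6631 (diabetes in sham rats), 6284 (RYGB in control rats) and 6257 (interaction) of all; the numbers do not pair the samples, since 5 of 15 same-number pairs had a correlation above 0.1 (range -0.38 to 0.453). A scan day block gave 5, 4, 0 and 8 of the 37, with 1739 of all genes for diabetes in sham rats and 119 for RYGB in control rats. Averaging only DM+Sham 2 and 3, an alternative chosen after seeing the data, gave 9, 7, 5 and 11 of the 37 and 5686 of all genes for RYGB in control rats. Leaving out 1 sample or array at a time gave 0 to 12, 3 to 10, 0 to 9 and 6 to 11 of the 37, and 961 to 5782, 3493 to 6897, 396 to 5446 and 1650 to 5887 of all genes. Among these, all genes gave 1366 for diabetes without Control+Sham 1, 1815 for the interaction without Control+RYGB 1, and 2102 for it without DM+Sham 2 and 3; without Control+RYGB 2 and 3 diabetes gave 1996 and RYGB in control rats 481. The interaction could not be fitted with only the groups compared. The number of arrays limits these results, and dim genes such as Itgam, Cd163 and Cd3e, near background on 1 array, are less certain.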

Other observations

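Among the further B cell genes, Mzb1, a chaperone of antibody-secreting cells, fell with diabetes in sham rats by 0.70 and with RYGB in control rats by 1.11, 2 comparisons that share the Control+Sham arrays. Clec9a, a receptor of cross-presenting dendritic cells, fell by 1.17 with diabetes in sham rats, and its change with RYGB was 1.70 higher in diabetic than in control rats (1.66 without DM+RYGB 2). Of the mast cell genes, the tryptase Tpsab1 rose with RYGB in both diabetic (1.91) and control rats (1.58). The chymase Cma1 rose by 3.23 in diabetic and 1.02 in control rats, with an interaction of 2.22 (2.32 without DM+RYGB 2). Another chymase of the list, Mcpt1, fell by 1.51 with RYGB in control rats. Without DM+RYGB 2 Tpsab1 (1.77 in diabetic rats) did not pass in all 3 scalings, and Cma1 (3.33) did.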
